A study of Arabidopsis thaliana with 18 samples.

Results

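Transcript signals of Arabidopsis thaliana, accession Van-0, were compared among the 9 arrays of samples that received 0.02% silwet, a silicone-based wetting agent that lets spray liquid coat a leaf. These 9 were chosen by the treatment in their descriptions out of 18 arrays in the series, and the other 9, which received salicylic acid in the same surfactant, entered none of the comparisons. The 9 samples are grouped by the first number of their titles into 3 title sets of 3 arrays: set 1 (109 to 111), set 2 (112 to 114) and set 3 (115 to 117). Each set holds the replicate numbers Rep1, Rep2 and Rep3 once, and the arrays are called silwet 1 to silwet 9 in title order, so that silwet 1, 4 and 7 are Rep1, silwet 2, 5 and 8 are Rep2 and silwet 3, 6 and 9 are Rep3. All 9 samples share the accession, the surfactant and its concentration. What a title set marks, the sampling time, the tissue, the age of the plants and whether each sample is its own plant or pot are not stated in the sources used here. The sets are therefore compared by number only and no time is assigned to any of them. A p-value here covers the spread among these arrays, part of which may be technical.

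The signals are MAS5 values, the summary of the probes of each probe set on Affymetrix's ATH1 array, on a linear scale with a trimmed mean of 100 on every array. Differences are given as log2(signal + 2) with their standard error from a limma fit over the 9 arrays that holds the Rep number as a block, and a probe set is called when its Benjamini-Hochberg adjusted p is below 0.05. Of 22746 probe sets other than the 64 controls, the 15922 with the higher mean signals were tested, and 8787 of these name 1 gene. Median signals per array lay between 23.3 (silwet 4) and 36.6 (silwet 3).

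Spraying, wetting and handling a plant are known to set off fast and often short-lived transcript changes that overlap with the first phase of defence, in which calcium signals, kinases, WRKY transcription factors and jasmonate act together. U-box ubiquitin ligases of the PUB22 type then dampen the signalling of pattern receptors, while glycosyltransferases and methyltransferases remove active hormone. A comparison among samples that received surfactant alone shows how far the levels of such genes differ where no salicylic acid was given. Whether wetting or handling accounts for any difference between the title sets was not tested.

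Libraries that stand apart are described first. The signal of the control transcript GAPDH from its 5′ end relative to its 3′ end, a measure of how complete the labelled RNA is, was 0.225 on silwet 7 and 0.465 on silwet 4 against 0.938 to 1.29 on the other 7 arrays. Actin and ubiquitin controls had their lowest ratios on the same arrays, and both are Rep1 arrays. An exact permutation test of a difference in this ratio between the sets, within Rep numbers, did not pass the threshold (p = 0.694, adjusted p = 1 over 6 ratios, smallest possible p 0.0278). The first principal component (43.5% of the variance) had silwet 4 at -78.1, silwet 1 at -50.0 and silwet 7 at -35.5, against 29.4 to 58.1 for the Rep2 and Rep3 arrays of sets 1 and 2. The title sets held 25.3% of the variance (exact permutation p = 0.111, one-sided, smallest possible 0.0278) and the Rep numbers 40.4%. Results are given below with all arrays and without silwet 4 and silwet 7.

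**Figure D1:**
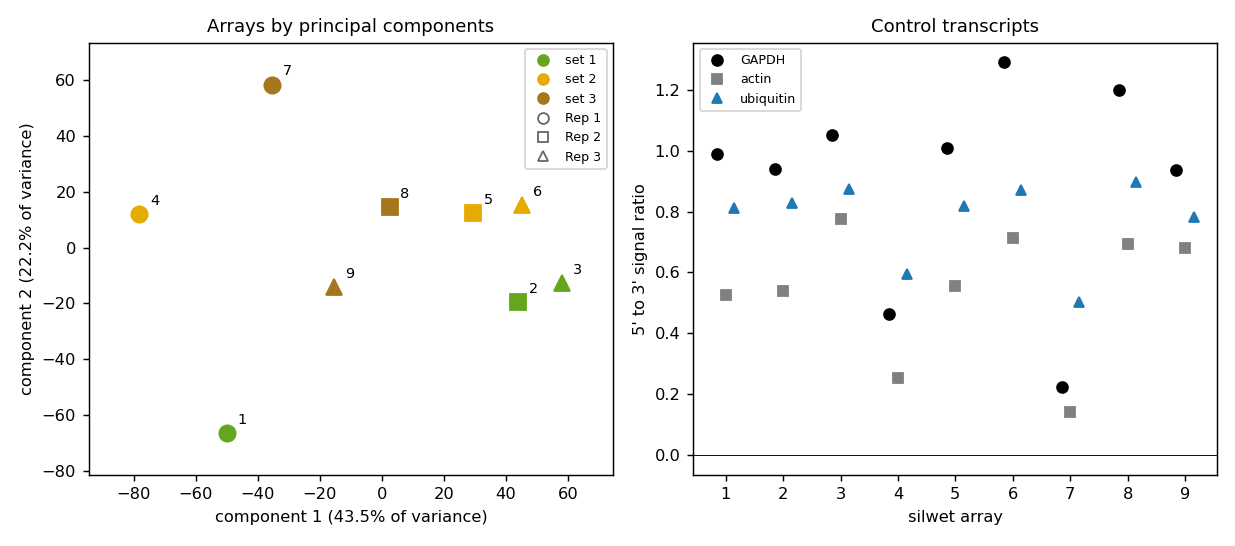
Left, the 9 silwet arrays on the first 2 principal components of log2(signal + 2), with colour for the title set and shape for the Rep number. Right, the 5′ to 3′ signal ratio of 3 control transcripts on each array; silwet 4 and silwet 7 have the lowest ratios of all 3.

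RCA (rubisco activase), a leaf marker, lay between 1429 and 3755 on the 9 arrays, with its lowest values on silwet 4 and silwet 7. The root marker EXPA18, a root hair expansin, lay between 8.597 and 20.78 with overlapping sets. The guard cell lineage markers SPCH and FMA lay between 4.294 and 27.9 and between 29.98 and 61.39. No marker of flower or seed has a probe set tested here, so their part was not tested. In whole samples, fewer cells of a type and less RNA per cell cannot be told apart.

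Set 3 and set 1 were the sets furthest apart. Of 15922 probe sets, 368 were called between them (2.31%), of which 294 were lower in set 3 than in set 1 (1.85%) and 74 were higher (0.465%), by limma. The called probe sets name 137 genes that were lower and 43 that were higher. The lower group held larger differences: 166 of all tested probe sets had at least 4-fold lower signals in set 3 and 6 at least 4-fold higher, and the median log2 difference of the calls was -1.96 and 1.31. The median over all tested probe sets was 0.04. Between set 2 and set 1, 10 probe sets were called (0.0628%), all lower in set 2, and between set 3 and set 2 none was (0%), with 480 at an unadjusted p below 0.05 and a smallest adjusted p of 0.495. The F-test over the 3 sets called 138 (0.867%).

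**Figure D2:**
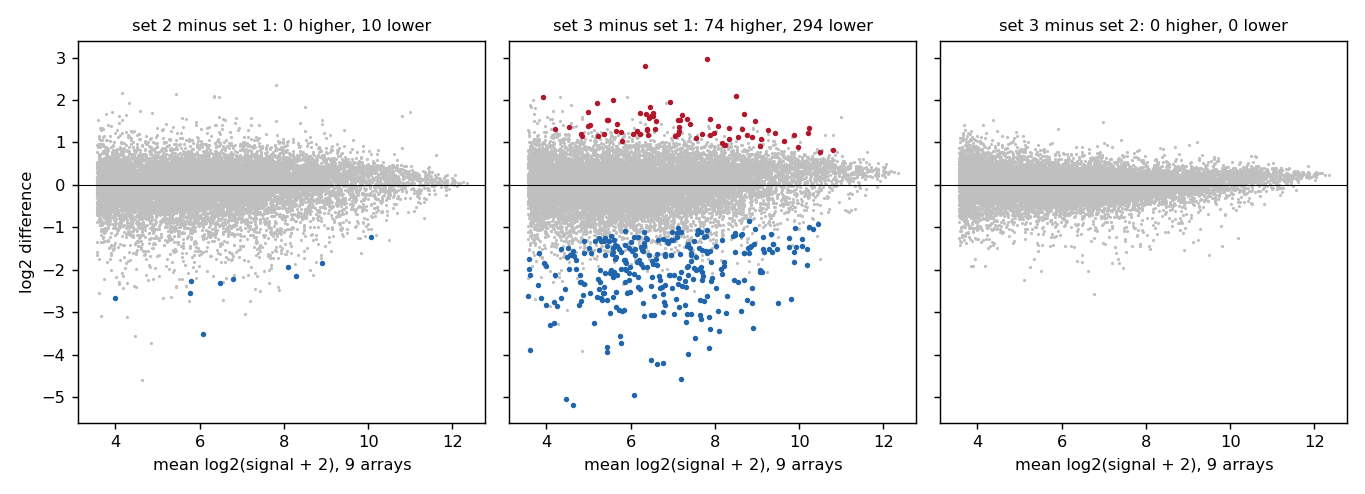
Log2 difference of each of the 15922 tested probe sets (y axis) against its mean log2(signal + 2) over the 9 arrays (x axis) for the 3 pairs of sets. Blue points were called lower and red points higher at a limma adjusted p below 0.05; the 294 lower calls of set 3 against set 1 reach -5.20.

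These counts depend on which arrays enter and on the Rep block. Without the block, 149 of the 368 probe sets were called between set 3 and set 1 (0.936%), 134 lower and 15 higher, and none between set 2 and set 1 (0%). Without silwet 4 and silwet 7, the fit with the block called 2311 (14.5%), 1505 lower and 806 higher, all 368 among them. In that fit silwet 1 has no partner of its Rep number, so that set 1 and set 3 are compared over Rep2 and Rep3 alone. Without both arrays and without the block, 72 were called (0.452%), 68 lower and 4 higher, of which 70 belong to the 368. Leaving out 1 array gave 228 calls without silwet 1, 8 without silwet 2, 110 without silwet 3, 169 without silwet 4, 130 without silwet 5, 145 without silwet 6, 1401 without silwet 7, 6 without silwet 8 and 274 without silwet 9. The fewest calls were made without silwet 2 or silwet 8, the Rep2 arrays of sets 1 and 3. The sign of the difference was the same for all 368 in each of these fits. The 368 were chosen by their call with all arrays, so this shared sign describes them and tests nothing.

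**Figure D3:**
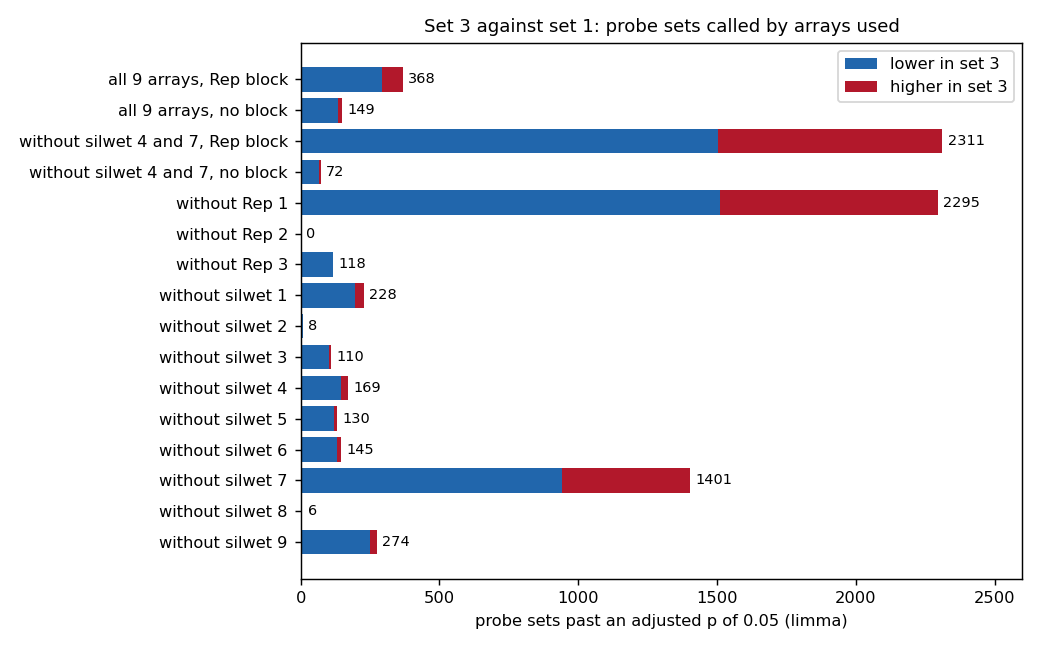
Number of probe sets called between set 3 and set 1 (x axis, from 0), lower in blue and higher in red, with all 9 arrays and with arrays or Rep numbers left out. The count runs from 0 without Rep2 to 2311 without silwet 4 and silwet 7 with the block kept.

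Set 2 lay between the other sets for most of these genes. Its mean was between those of sets 1 and 3 for 284 of the 294 lower calls (96.6%) and for 68 of the 74 higher calls (91.9%), against 50% of all tested probe sets. Calls between the outer sets make such an order more likely, so these shares describe the called group and test nothing. The median log2 difference of the lower calls was -1.34 from set 1 to set 2 and -1.96 from set 1 to set 3, and it was -1.98, -2.05 and -1.61 between sets 3 and 1 in Rep1, Rep2 and Rep3. The comparisons share arrays, so their values stand side by side and are not independent. No overlap of the 3 arrays of set 3 with those of set 1 was seen in 281 of the 294 lower and 73 of the 74 higher calls; over all tested probe sets the 3 arrays of set 3 lay below those of set 1 in 7.26% and above them in 9.11%.

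Among regulators of the first phase of defence, PUB22 and PUB23, paralogous U-box ubiquitin ligases that dampen signalling from pattern receptors, had far lower signals in sets 2 and 3. PUB23 (AT2G35930) had signals of 82.8, 288 and 263 in set 1, 18.3, 61.9 and 42.3 in set 2, and 13.6, 25.7 and 29.9 in set 3. Every array of set 1 lay above every array of the other sets, and in each set the Rep1 array was the lowest. The log2 difference from set 1 was -2.28 ± 0.26 (SE) in set 2 (limma adjusted p = 0.0414) and -2.96 ± 0.26 in set 3 (limma adjusted p = 0.00545). PUB22 (AT3G52450) had 26.4, 100.2 and 60.6 in set 1, 2.60, 9.19 and 12.02 in set 2, and 1.91, 7.47 and 11.4 in set 3. Its values on silwet 4 and silwet 7 lie near the added constant, so the size of its differences is uncertain. Its order of arrays was like that of PUB23, with the lowest value of each set on the Rep1 array. The differences were -2.66 ± 0.32 (limma adjusted p = 0.047) and -2.84 ± 0.32 (limma adjusted p = 0.00779). Without silwet 4 and silwet 7 and with the block, the set 3 differences were -3.22 for PUB23 (limma adjusted p = 0.000267) and -2.83 for PUB22 (limma adjusted p = 0.00245). With the block also dropped, they were -2.65 and -2.33 (limma adjusted p = 0.0824 and 0.124). With all arrays and no block, the set 2 differences were not called (limma adjusted p = 0.245 for PUB23 and 0.234 for PUB22).

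CML38, a calmodulin-like calcium sensor, gave 81.8, 121 and 88.7 in set 1, 20.1, 16.2 and 24.1 in set 2, and 15.7, 10.7 and 18.5 in set 3. The sets 1 and 3 were separated by more than the spread within either, at -2.56 ± 0.29 (limma adjusted p = 0.00779), and the call stayed without silwet 4 and silwet 7, with the block (limma adjusted p = 0.00158) and without it (limma adjusted p = 0.0238). BIK1, a receptor-like cytoplasmic kinase that relays signals from pattern receptors, had 231, 362 and 349 in set 1 against 77.2, 149.9 and 147 in set 2 and 87.0, 128 and 126 in set 3. All 3 arrays of set 1 were above the other 6, and sets 2 and 3 overlapped. The set 3 difference was -1.44 ± 0.20 (limma adjusted p = 0.0144), and without the block it was not called (limma adjusted p = 0.0878). IQD22, of a calmodulin-binding family, had set means of 125.4 ± 39.2, 27.6 ± 17.6 and 28.2 ± 10.8 (SD, n = 3).

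The WRKY family of transcription factors had 5 tested members, and 2 of them were called lower in set 3, against 1.85% of all tested probe sets. WRKY6, which acts in senescence and defence, had 240.3, 206 and 235 in set 1, 65.98, 108 and 83.3 in set 2, and 49.2, 60.2 and 112 in set 3, a difference of -1.68 ± 0.30 (limma adjusted p = 0.0327). WRKY22, a factor of the kinase cascade of pattern-triggered immunity, had 60.1, 51.1 and 92.3 in set 1 against 20.04, 20.3 and 37.7 in set 3, a difference of -1.33 ± 0.26 (limma adjusted p = 0.0417). In both genes sets 1 and 3 did not overlap, and the arrays of set 2 overlapped with those of set 3. Without the block neither was called (limma adjusted p = 0.0528 for WRKY6 and 0.124 for WRKY22). WRKY6 was called in 2 and WRKY22 in 1 of the 9 fits that leave out 1 array. WRKY53, a regulator of senescence, was not called at -1.07 ± 0.28 (limma adjusted p = 0.102). WRKY47 and WRKY20 had -0.89 and -0.01, and the median of the 5 was -1.07. Of the 4 tested rapid stress genes (PUB22, PUB23, STZ and WRKY53), 2 were called lower in both set 2 and set 3, with a median of -2.19 from set 1 to set 3. Of all tested probe sets, 0.0628% were called lower in set 2 and 1.85% in set 3. Among the 8 tested U-box ligases, PUB22 and PUB23 were the 2 called lower in set 3, and the median was -0.55. The gene lists were chosen with earlier results of these data known, so these counts describe their members and test nothing. STZ, a zinc finger repressor of stress responses, had 700.1, 584 and 505 in set 1 and 125, 133 and 487 in set 3. Its value on silwet 9 reached nearly that of set 1, and the difference of -1.55 ± 0.45 was not called (limma adjusted p = 0.136).

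**Figure D4:**
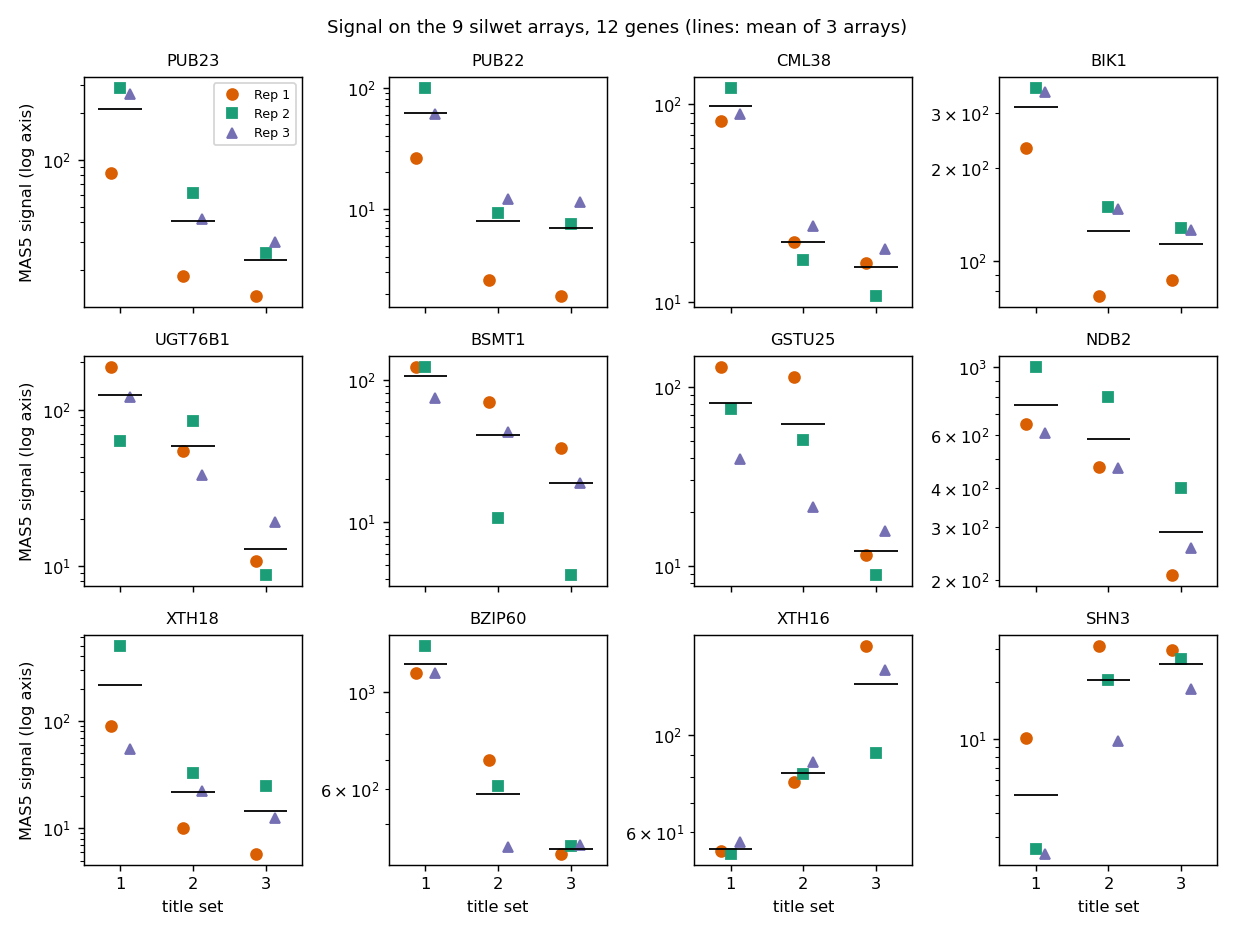
MAS5 signal (log axis) of 12 genes called between set 3 and set 1 on each silwet array, by title set (x axis), with shape and colour for the Rep number and a line at the mean of the 3 arrays. Of these genes, 10 are lower in set 3 and XTH16 and SHN3 are higher.

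Enzymes that alter salicylic acid and jasmonate were among the genes lower in set 3. UGT76B1, a glycosyltransferase that conjugates salicylic acid and isoleucic acid, had 188, 62.7 and 121 in set 1, 54.0, 84.0 and 38.3 in set 2, and 10.7, 8.72 and 19.2 in set 3. Sets 1 and 2 overlapped, and every array of set 3 was below all 6 others. The difference between sets 3 and 1 was -3.01 ± 0.46 (limma adjusted p = 0.0193). Without silwet 4 and silwet 7 it was -2.57 with the block (limma adjusted p = 0.00859) and -2.93 without (limma adjusted p = 0.0712). BSMT1, a methyltransferase of salicylic and benzoic acid, had 123, 123 and 73.9 in set 1, 69.6, 10.7 and 42.7 in set 2, and 33.2, 4.24 and 18.8 in set 3. Its Rep2 array was the lowest in sets 2 and 3, and the difference was -2.67 ± 0.52 (limma adjusted p = 0.0422). JRG21, a dioxygenase that oxidises jasmonate, had 155, 233 and 176 in set 1 against 31.9, 44.4 and 96.6 in set 3, a difference of -1.80 ± 0.32 (limma adjusted p = 0.0301).

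Of the 3 tested genes of the salicylic acid response, UGT76B1 was the member called (1.85% lower of all tested), and the median of the list was -1.27. GRX480, a glutaredoxin induced by salicylic acid, had 675, 346 and 264 in set 1, 377.5, 188 and 162 in set 2, and 154, 116 and 242 in set 3. Its highest value was on silwet 1, sets 1 and 3 were apart by the small gap between silwet 3 and silwet 9, and the difference of -1.27 ± 0.37 was not called (limma adjusted p = 0.139). SAG101, a lipase-like partner in immune receptor signalling, had -0.27 ± 0.41 (limma adjusted p = 0.8). Of 3 jasmonate and ethylene defence genes, BSMT1 was called lower in set 3, against 1.85% of all tested probe sets. BSMT1 was not called without the block (limma adjusted p = 0.144) and was called in 2 of the 9 fits that leave out 1 array. The thionin THI2.1 reached 194 on silwet 4 against 10.9 to 61.4 on the other 8 arrays. The defensin PDF1.2 reached 192 on silwet 7 against 11.0 to 55.2 on the others. Both arrays are those of low 5′ signal, and neither gene was called (limma adjusted p = 0.359 and 0.476). Without both arrays and with the block, THI2.1 was called lower in set 3 at -1.68 (limma adjusted p = 0.0156). With the block also dropped, THI2.1 had -1.79 and was not called (limma adjusted p = 0.0888).

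GSTU25, a tau class glutathione transferase, had 129.8, 75.7 and 39.8 in set 1, 114, 50.6 and 21.4 in set 2, and 11.5, 8.84 and 15.7 in set 3. The first 2 sets overlapped, with the Rep1 array the highest in both, and set 3 lay below both. The difference between sets 3 and 1 was -2.46 ± 0.47 (limma adjusted p = 0.0401), and between sets 3 and 2 it was -1.93 ± 0.47, which was not called (limma adjusted p = 1). Without the block GSTU25 was not called between sets 3 and 1 (limma adjusted p = 0.0969). It was called in 2 of the 9 fits that leave out 1 array. Of the 10 tested glutathione transferases it was the 1 called lower, against 1.85% of all tested probe sets, and their median was 0.16. GSTU20 and GSTU27 had 0.52 and 0.83 without passing the test (limma adjusted p = 0.119 and 0.118). MSRB9, which repairs oxidised methionine, had 642, 471 and 239 in set 1, 216, 138 and 111 in set 2, and 100.5, 85.0 and 77.9 in set 3. No array of one set overlapped with another set, and the set 3 difference was -2.23 ± 0.25 (limma adjusted p = 0.00779). NDB2, an alternative NAD(P)H dehydrogenase of mitochondria, had 649, 1003 and 609 in set 1, 472, 798 and 466 in set 2, and 208, 401 and 255 in set 3. Its Rep2 array was the highest of each set. The difference between sets 3 and 1 was -1.40 ± 0.17 (limma adjusted p = 0.01) and was not called without the block (limma adjusted p = 0.1). From set 2 to set 3 it was -1.01 with all 3 Rep pairs negative, and was not called (limma adjusted p = 0.889).

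UDP-glycosyltransferases gave 2 calls among 30 tested members, UGT76B1 and UGT73C1, and their median was -0.16 with 20 of 30 below 0. Over all tested probe sets 1.85% were called lower and 46.6% were below 0. UGT73C1, of a group that conjugates cytokinins and brassinosteroids, had 38.1, 98.0 and 42.9 in set 1, 1.09, 34.0 and 16.6 in set 2 and 4.09, 18.4 and 2.74 in set 3. Its low values on several arrays are close to the added constant, and the call (-2.75 ± 0.54, limma adjusted p = 0.044) was lost when the block was dropped (limma adjusted p = 0.245). Cytochrome P450 enzymes gave calls in both directions, 1 lower and 2 higher of 15 tested, with a median of 0.39, against 1.85% lower and 0.465% higher of all tested probe sets. CYP84A4, which makes arabidopyrones, had 137, 86.0 and 47.9 in set 1 against 18.8, 9.52 and 17.9 in set 3, a difference of -2.33 ± 0.34 (limma adjusted p = 0.0158). CYP71B37 had 11.6, 17.7 and 15.96 in set 1, 65.0, 22.4 and 56.6 in set 2, and 81.5, 53.6 and 54.0 in set 3, a difference of 1.92 ± 0.38 (limma adjusted p = 0.0454). CYP71B5 had set means of 16.7 ± 3.21, 25.9 ± 1.74 and 40.9 ± 3.28 (SD, n = 3), with no overlap between the sets. Members of such families are close relatives, so a probe set can take signal from a paralogue.

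In the folding pathway of the endoplasmic reticulum, BZIP60, a transcription factor of the unfolded protein response, had 1102, 1274 and 1102 in set 1, 701, 611 and 443 in set 2, and 426, 443.8 and 447 in set 3. The 3 arrays of set 3 were nearly equal (438.8 ± 11.4, SD, n = 3) against 1159 ± 99.2 in set 1. The difference was -1.39 ± 0.19 (limma adjusted p = 0.0138), and it was called without silwet 4 and silwet 7, with the block (-1.41, limma adjusted p = 0.00285) and without (-1.37, limma adjusted p = 0.0457). Its relative BZIP28, of the same response, had 28.4 on silwet 4 and 39.9 on silwet 7 against 105.9 to 132 on the other 7 arrays, and so followed the arrays of low 5′ signal and not the sets. The co-chaperone ATERDJ3B had a difference of -0.23 ± 0.21. The cytosolic chaperone Hsp70-2 was called lower, from 385.7 ± 134 in set 1 to 115.5 ± 52.2 in set 3 (SD, n = 3), a log2 difference of -1.79 ± 0.33 (limma adjusted p = 0.0362). Without the block Hsp70-2 was not called (limma adjusted p = 0.168).

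Genes of the cell wall were called in both directions. XTH18, a xyloglucan-modifying enzyme, had 89.4, 502 and 55.4 in set 1, 10.03, 33.0 and 22.4 in set 2, and 5.73, 25.0 and 12.5 in set 3. The Rep2 array was the highest of each set, and the value of 502 on silwet 2 makes the set 1 mean 215.7 ± 249 (SD, n = 3). The log2 difference was -3.26 ± 0.46 (limma adjusted p = 0.0153), and without the block it was not called (limma adjusted p = 0.1). XTH16 went the other way, with 54.2, 53.3 and 57.0 in set 1, 78.1, 81.3 and 86.6 in set 2, and 160, 90.9 and 141 in set 3. Its sets did not overlap, and the difference was 1.18 ± 0.24 (limma adjusted p = 0.0482). The expansin EXPA8 had 299, 146 and 235 in set 1 and 569, 717 and 440 in set 3 and was just outside the threshold at 1.37 ± 0.29 (limma adjusted p = 0.053). Without silwet 4 and silwet 7 and with the block it was called (1.59, limma adjusted p = 0.0102), and with the block also dropped it was not. The 16 tested expansin and XTH genes had a median of 0.10, with 1 called in each direction, against 1.85% lower and 0.465% higher of all tested probe sets. In the family of acetyltransferases of wall polysaccharides, TBL37 was lower in set 3 (-2.13 ± 0.26, limma adjusted p = 0.01) and TBL36 higher (1.199 ± 0.23, limma adjusted p = 0.0437). SBT3.5, a subtilase that matures a pectin-modifying enzyme, had 538 ± 185 in set 1, 265 ± 131 in set 2 and 114 ± 31.5 in set 3 (SD, n = 3), a log2 difference of -2.21 ± 0.22 between sets 3 and 1 (limma adjusted p = 0.00552).

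SHN3, an activator of cutin and wax synthesis in the plant surface, was the gene with the largest higher difference in set 3 among those with a symbol. Its signals were 10.1, 2.58 and 2.42 in set 1, 31.2, 20.4 and 9.74 in set 2, and 29.7, 26.6 and 18.4 in set 3. Sets 1 and 3 did not overlap, while silwet 6 fell just below silwet 1, and the low values of set 1 lie near the added constant. The log2 difference was 2.08 ± 0.34 (limma adjusted p = 0.0238), and it was 2.42 without silwet 4 and silwet 7 (limma adjusted p = 0.00919 with the block, 0.231 at 1.95 without it). Besides SHN3, XTH16, TBL36, CYP71B5 and CYP71B37, the genes with a symbol called higher in set 3 were the secreted peptide gene RALFL34 (0.91), NRPD7 (1.14), which encodes a subunit of an RNA polymerase of RNA-directed DNA methylation, and AOP1 (1.28), a dioxygenase gene next to those of glucosinolate side chain formation. The calls of RALFL34, NRPD7, AOP1, XTH16, TBL36, CYP71B5 and CYP71B37 were made in 1 of the 9 fits that leave out 1 array. SHN3 was called in 2 of these fits.

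Remaining genes with a symbol that were lower in set 3 were GH3.3, JAL23, JAL34 and SGP2. GH3.3, which conjugates auxin to amino acids, had 42.4, 110.3 and 158 in set 1, 14.9, 70.8 and 85.3 in set 2, and 8.74, 27.0 and 65.5 in set 3. The sets overlapped, with the Rep1 array the lowest of each, and within each Rep number the order was set 1, set 2, set 3. The difference was -1.75 ± 0.27 with the block (limma adjusted p = 0.0204) and was not called without it (limma adjusted p = 0.479). The jacalin lectin gene JAL23 had 156, 376 and 384.3 in set 1 and 72.7, 37.5 and 46.8 in set 3, a difference of -2.44 ± 0.44 (limma adjusted p = 0.0326), and JAL34 had -1.62 with overlapping sets. The 32 genes with a symbol that were called between sets 3 and 1 were called in 1 to 7 of the 9 fits that leave out 1 array (median 2.5). All 32 were called without silwet 4 and silwet 7 with the block, 9 with all arrays and no block, and 3 (CML38, TBL37 and BZIP60) without both arrays and no block. The 9 were UGT76B1, PUB23, CML38, JAL23, CYP84A4, MSRB9, SBT3.5, TBL37 and BZIP60, and the rest of the 32 lost their call when the block was dropped.

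Most of the steepest differences belong to loci without a symbol in the gene table, for which no role is given here. AT5G51440 had 1190, 882 and 463 in set 1, 149, 145 and 72.7 in set 2, and 17.4, 36.7 and 46.8 in set 3. No set overlapped with another, and the difference between sets 3 and 1 was -4.57 ± 0.46 (limma adjusted p = 0.00552). AT2G20720 had 252, 394 and 623 in set 1, 40.3, 120 and 98.0 in set 2, and 13.6, 28.0 and 23.2 in set 3. Its sets were also separate, and its difference of -4.13 ± 0.27 (limma adjusted p = 0.000717) was called in all 9 fits that leave out 1 array. AT1G54020 had 599, 375.4 and 317 in set 1, 324, 49.1 and 148 in set 2, and 36.1, 9.41 and 25.2 in set 3, with -4.19 ± 0.38 (limma adjusted p = 0.00552). AT1G74870 had the largest difference of the named genes, -5.20 ± 0.87 (limma adjusted p = 0.0252), from 101, 395 and 325 in set 1 to 16.9, 2.68 and 1.06 in set 3. Its low values lie near the added constant, so the size of the difference is uncertain, and leaving out 1 array moved it between -6.51 and -4.19. AT2G38240 had 405, 1845 and 1015 in set 1 and 63.4, 66.4 and 143 in set 3. AT5G52050, which the gene table also lists as the efflux carrier DTX50, had 115.5, 43.8 and 42.7 against 1.64, 2.01 and 15.2, a difference of -3.30 ± 0.64 (limma adjusted p = 0.0417). Its values on silwet 7 and silwet 8 also lie near the added constant. AT2G22880, AT1G71530 and AT2G34930 complete the 10 named genes that were lowest in set 3, at -3.94, -3.90 and -3.57. For AT1G71530 the values on silwet 7 and silwet 9 are below the added constant.

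Loci without a symbol that were higher in set 3 had smaller differences. AT2G44240 had 26.2, 9.90 and 51.5 in set 1, 66.3, 109 and 175 in set 2, and 125.5, 224 and 207 in set 3. Sets 1 and 2 did not overlap, nor did sets 1 and 3, and the set 3 difference was 2.80 ± 0.44 (limma adjusted p = 0.0204). AT5G12940 had 80.6, 48.1 and 43.4 in set 1, 234, 100.5 and 121 in set 2, and 263, 186 and 220.3 in set 3, a difference of 1.96 ± 0.23 (limma adjusted p = 0.00972) that was called in 7 of the 9 fits with 1 array left out. AT4G28780, AT4G12490, AT5G26790, AT2G29170, AT3G19550 and AT4G18970 had differences of 1.99, 1.82, 1.71, 1.68, 1.66 and 1.64. In AT4G12490 the Rep2 array was the highest of sets 2 and 3, at 134 and 252.

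Between set 2 and set 1, the 5 named genes among the 10 calls were PUB22, PUB23, AT2G20720, AT3G09405 and AT4G17260. AT4G17260 had the smallest adjusted p, with 612, 1454 and 935.5 in set 1, 141, 287 and 235 in set 2, and 115, 194 and 154 in set 3. All arrays of set 2 lay below those of set 1 and the difference was -2.14 ± 0.19 (limma adjusted p = 0.0153). AT3G09405 had 201, 469 and 381.2 in set 1 and 53.9, 78.03 and 78.6 in set 2, a difference of -2.22 ± 0.25 (limma adjusted p = 0.0414). Of all tested probe sets, the 3 arrays of set 2 lay below those of set 1 in 6.58% and above them in 5.61%. Without silwet 4 and silwet 7 the fit with the block called 259 probe sets lower and 53 higher (1.96% in all), and without the block none (0%). Each fit that left out 1 array called none, apart from 325 without silwet 7 and 57 without silwet 9. The largest higher values in set 2, none of them called, were 2.17 for AT1G13650, 2.08 for AT4G16260 and 2.08 for AT2G44240.

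Between set 3 and set 2 no gene was called. The 3 arrays of set 3 lay above those of set 2 in 3.04% of all tested probe sets and below them in 1.99%. Among genes with the same sign in all 3 Rep pairs, the largest lower values were those of AT1G54020 (-2.57 ± 0.38, limma adjusted p = 0.538), AT3G13610 (-2.25 ± 0.74, limma adjusted p = 1), UGT76B1 (-2.02 ± 0.46, limma adjusted p = 1) and GSTU25. By the same rule, the largest higher values were those of AT5G52390 (1.53), with 28.7, 8.69 and 8.64 in set 2 and 34.8, 57.4 and 36.5 in set 3, and AT3G06070 (1.48). EXO, which promotes brassinosteroid-dependent growth, had 34.9, 43.9 and 33.6 in set 2 and 89.7, 44.3 and 220.2 in set 3, where the value rests on silwet 7 and silwet 9. BZIP61 had 18.3, 28.5 and 14.4 in set 2 and 35.2, 42.9 and 64.8 in set 3, at 1.15 ± 0.48. The fit without silwet 4 and silwet 7 called 9 probe sets between these sets with the block (0.0565%) and none without (0%).

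Genes of photosynthesis, cold and drought, and secretion were not called between any of the sets. The 8 tested nuclear photosynthesis genes had a median of 0.12 between sets 3 and 1, and all 8 were above 0 between sets 3 and 2, as were 51.9% of all tested probe sets. PSAN, a subunit of photosystem I, had 2544, 2467 and 2043 in set 1 and 3453, 2779 and 3054 in set 3, at 0.40 ± 0.14 (limma adjusted p = 0.208). The 69 plastid-encoded genes had a median of 0.07 between sets 3 and 1 and of 0.24 between sets 3 and 2, with 59 of 69 above 0 in the latter, again against 51.9% of all tested. Without silwet 4 and silwet 7 and with the block, 7 of the 69 were called higher and 1 lower in set 3 than in set 1. That fit called 14.5% of all tested probe sets, 5.06% higher and 9.45% lower. By direction, the plastid genes had a larger share called higher and a smaller share called lower, a contrast that was not tested. With the block also dropped, 0 of the 69 were called in either direction, against 0.452% of all tested probe sets. Of 4 genes of the abscisic acid, drought and cold response, COR15A and COR47, which protect cells from freezing, had 0.39 ± 0.33 and 0.47 ± 0.40. The 9 tested genes of secretion and the exocyst had a median of -0.39 and all were below 0 between sets 3 and 1, against 46.6% of all tested probe sets. The Rep pairs did not all share this sign. SEC6 and KEU were higher on silwet 7 than on silwet 1, and lower in set 3 in the Rep2 and Rep3 pairs. With the block and without silwet 4 and silwet 7, 4 of the 9 were called lower, against 9.45% of all tested. That fit compares sets 3 and 1 over Rep2 and Rep3 alone. With the block also dropped, 0 of the 9 were called. The auxin genes had 1 call in 5, GH3.3 (1.85% lower of all tested), and a median of -0.08. The reference gene GAPC2, a glycolytic enzyme, had 0.35 ± 0.14 (limma adjusted p = 0.239), and AT4G34270 had -0.24 ± 0.26.

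**Figure D5:**
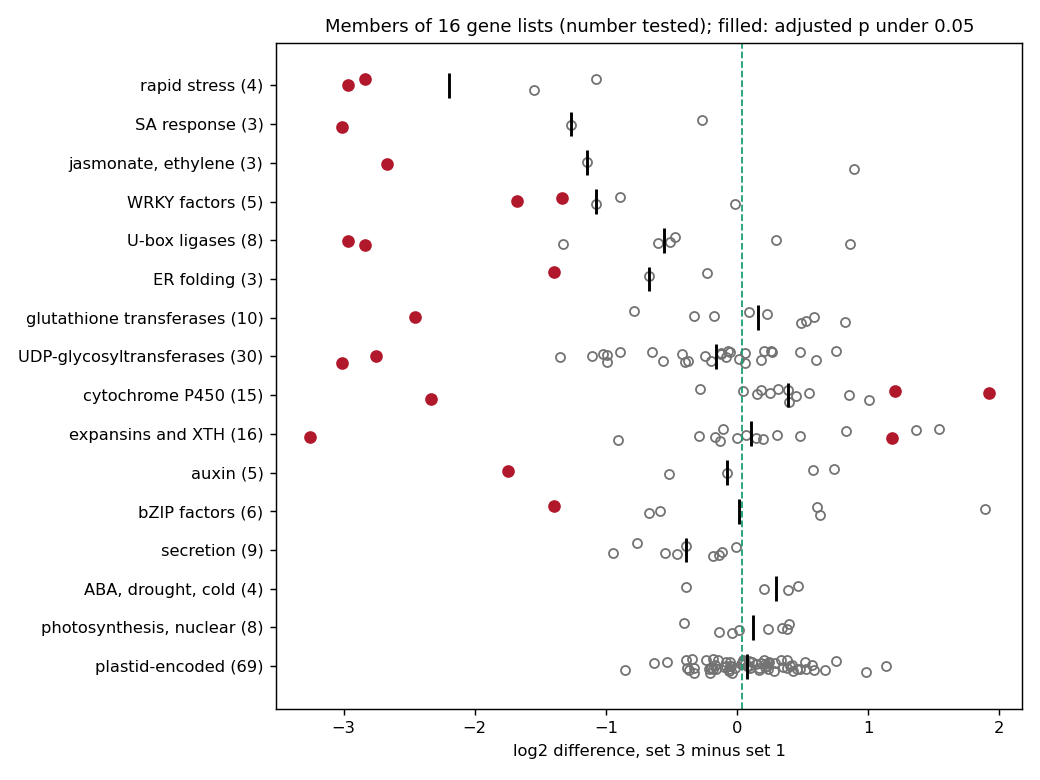
Log2 difference between set 3 and set 1 (x axis) of the tested members of 16 gene lists (y axis, number tested in brackets). Filled points passed a limma adjusted p below 0.05, black bars are list medians, and the dashed line is the median of all tested probe sets at 0.04; the rapid stress list has its median at -2.19 and the plastid-encoded genes at 0.07.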

How the data were processed

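Total RNA of Van-0 was hybridised to ATH1 arrays, per the labels, with 1 sample on each array. The deposited table holds 1 intensity for each of 22810 probe sets on each array, made with MAS5 per the submitters' processing notes; the version, the scanner and later steps are not stated there. The trimmed mean of every array, without its lowest and highest 2%, was 100 in the deposited intensities. This scaling hides a change shared by most transcripts, and MAS5 gives noisy low signals.

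The 9 silwet arrays were analysed as log2(signal + 2), without the 64 AFFX control probe sets and the lowest 30% by mean (6824), which left 15922. A difference on this scale understates changes of low signals. Title sets were compared with limma 3.58.1 in R 4.3.3 (lmFit with the Rep number as a block, eBayes with an intensity trend, two-sided, Benjamini-Hochberg over all tested probe sets, threshold 0.05), after the script was checked on simulated data. The variance share and the 5′ to 3′ ratios were tested by exact permutation of set labels within Rep numbers. No 2 arrays held the same values (smallest median absolute log2 difference 0.249). The number of arrays limits the precision.

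Gene names came from the annotation table of the array platform, and symbols from the TAIR10.1 gene table: 13513 of 22810 had 1 gene, 13436 of them in the gene table. Of those tested, 8787 had 1 gene, 323 several and 6812 are unnamed here, and 1204 tested genes have a symbol other than the locus tag. No coordinates or sequences were used. Genes named in the text are, for each pair of sets, the 10 largest differences in each direction with the same sign in all 3 Rep pairs, those past the threshold first; from each list up to 4 members past the F-test or the one with the smallest p; and all tested salicylic acid and rapid stress genes. Genes outside this rule, chief among them all genes with a symbol called between sets 3 and 1 and the list members described as not called, were chosen after their values were seen. For a gene with several probe sets, the brightest by mean signal was used. The groups compared and the 33 gene lists (22 with a tested member) were chosen with earlier results of these data known, and some list patterns were changed after the annotation was seen. Alternatives covered the pseudocount, the filter, quantile normalization, median centring, the block, the trend, array weights and each array or Rep number left out.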

Additional observations from a re-analysis of the deposited data

How the results depend on the processing

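Of the followed 89 differences of named genes, none changed direction under those of the 23 alternatives in which it was tested. Each was chosen for the same sign in all 3 Rep pairs or for its call in these data, so the kept direction tests nothing. Of the 89, 62 were tested in all alternatives, and the other 27 were not tested with the lowest 50% left out. The count between sets 3 and 1 (368) moved by over 1.5 times without the replicate block (149), with array weights (4434, 2195 of them higher) and without silwet 4, silwet 7 and the block (72). That between sets 2 and 1 (10) became 67 with a pseudocount of 16, 37 with the lowest 50% left out, 33 after quantile normalization, 6 after median centring, 52 with Rep as a random block, 2 without the trend, 1052 with array weights, and 0 without the block with all arrays or without silwet 4 and silwet 7. Between sets 3 and 2 (0) it became 926 with array weights. The F-test count (138) became 210 after quantile normalization, 62 without the block, 208 with Rep as a random block, 67 without the trend, 3763 with array weights, and 33 without silwet 4, silwet 7 and the block. The array weights had not converged, and gave silwet 8 a weight of 30.3 against 0.116 for silwet 7. With the block, leaving out 1 array, 1 Rep number or both silwet 4 and silwet 7 gave 0 to 1299 calls in the F-test and 0 to 325 between sets 2 and 1. The same fits gave 0 to 2311 between sets 3 and 1 and 0 to 9 between sets 3 and 2. Rep2 left out gave 0 in each. In the F-test and between sets 3 and 1 no other of these fits gave 0. Between sets 2 and 1 and between sets 3 and 2 several others did. These fits hold fewer arrays, and the cause of the changes in count was not tested. Higher calls were 20.1% of the 368. The variance share of the sets was 27.6% after quantile normalization (exact permutation p = 0.0833) and 39.9% without silwet 4 and silwet 7 (p = 0.222, smallest possible 0.0556). Deviations from set means correlated between arrays of the same Rep number at -0.098 to 0.662, so not every pair passed 0.1. Between sets 1 and 3, these correlations were -0.093 in Rep1, 0.177 in Rep2 and -0.098 in Rep3. Of 9 arrays, 8 correlated best with their own number, some by a small margin (silwet 2 at 0.353 with silwet 5 against 0.348 with silwet 6). The block was kept because the comparison is defined with it. The number of arrays and low signals limit what can be called.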

Other observations

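Some list members had extreme values on single arrays. The exocyst subunit gene SEC6, whose product tethers secretory vesicles, had 23.0, 119 and 170 in set 1, 27.4, 121 and 151 in set 2, and 114, 52.4 and 24.4 in set 3. KEU, a regulator of vesicle fusion in cytokinesis, had 23.6, 142 and 237 in set 1, 27.2, 101 and 130 in set 2, and 117, 47.4 and 19.1 in set 3. In both genes silwet 1, silwet 4 and silwet 9 were the lowest. SAG29, a sugar transporter gene linked to senescence, had 112, 23.7 and 20.7 in set 1, 162, 12.8 and 22.8 in set 2, and 61.2, 2.86 and 94.1 in set 3, and so was highest on silwet 1 and silwet 4, with silwet 9 next. AT3G02480 had 224 on silwet 1 and 335 on silwet 4 against 9.96 to 67.4 on the other 7 arrays. None of these genes was called between the sets with all 9 arrays, and the limma adjusted p between sets 3 and 1 was 0.796, 0.66, 0.846 and 0.935. In the fit with the block but without silwet 4 and silwet 7, SEC6 (-1.93, limma adjusted p = 0.00991) and KEU (-2.52, limma adjusted p = 0.00628) were called lower in set 3 than in set 1 and AT3G02480 higher (1.67, limma adjusted p = 0.0384), while SAG29 was not called (-0.16, limma adjusted p = 0.915). With the block also dropped, none of the 4 was called, at limma adjusted p of 0.718, 0.616, 0.97 and 0.87 in the same order.

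The clock gene GI, which peaks late in the day in many plants, had 122, 262 and 329 in set 1, 56.6, 333 and 490.1 in set 2, and 68.6, 262 and 266 in set 3. The Rep1 array was the lowest of each set, and the sets overlapped throughout (limma adjusted p = 0.621 between sets 3 and 1). The plastid genes psaA and atpH, which encode parts of photosystem I and of the ATP synthase, had their highest signals on silwet 9, at 960.1 and 1757.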
